A study of Mus musculus with 17 samples.

Results

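The 8 genes of leukocyte adhesion described here were followed in macrophages that lack or carry SOCS3. They are Selp (P-selectin), Selplg (its ligand PSGL-1), the immunoglobulin-family receptors Icam1 and Vcam1, the integrin chains Itgal, Itgam and Itgb2, and the hyaluronan receptor Cd44. The members were chosen by gene symbol around Selp, which had been singled out by its rise in SOCS3-deficient cells after 100 min of interleukin-6 (IL-6). They occupied 12 of the 12488 probe sets of the array, each annotated to a single gene symbol as were 10855 probe sets in all, and all 8 genes were on the array. The 17 arrays measured RNA from mouse macrophages grown from bone marrow, 1 array per sample. KO cells were SOCS3-/- and comprised 3 unstimulated samples, 3 stimulated with 10 ng/ml IL-6 for 100 min and 3 for 400 min. WT cells were SOCS3+/+ and comprised 2 unstimulated samples and 3 at each of the same times and dose. Both genotypes came from fetal liver cells transplanted into recipient mice, described for 1 WT sample as irradiated, and the labels call the cultured marrow donor-derived without giving the share of host cells that was left. The labels give no age or strain, and do not say whether replicates came from separate mice or cultures, so each p-value reflects how far these samples spread, and that spread may be technical.

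Leukocytes leave the blood in steps. Selectins such as P-selectin bind sulfated and glycosylated PSGL-1 and let cells roll, and integrins that share the beta2 chain, LFA-1 (Itgal with Itgb2) and Mac-1 (Itgam with Itgb2), then hold them on ICAM-1, while VCAM-1 binds integrins of the alpha4 group. P-selectin protein is best known from the granules of platelets and endothelial cells, and macrophages are known mainly as carriers of PSGL-1, Mac-1 and CD44. IL-6 signals through gp130 and JAK kinases to STAT3, and SOCS3 is the feedback inhibitor that binds gp130.

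Promoter sequence was at hand for 4 of the 8 members (Selp, Icam1, Itgam and Cd44), as the 250 bases before the RefSeq gene start in build GRCm38.p6. The windows of Selp and Icam1 are shown because Selp was the member with a called difference, and because Icam1, the other member whose KO arrays at 100 min all lay above the unstimulated ones, holds a match that Selp lacks. Capitals mark a match to TTCNNNGAA, the spacing bound by most STAT dimers, which reads the same on both strands.
Selp, chr1:164115014-164115263, plus strand: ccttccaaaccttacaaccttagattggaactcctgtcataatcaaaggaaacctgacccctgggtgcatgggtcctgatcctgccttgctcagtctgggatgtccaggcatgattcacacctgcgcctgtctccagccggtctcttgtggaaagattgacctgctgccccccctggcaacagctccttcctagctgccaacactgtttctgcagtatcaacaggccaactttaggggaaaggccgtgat
Icam1, chr9:21015690-21015939, plus strand: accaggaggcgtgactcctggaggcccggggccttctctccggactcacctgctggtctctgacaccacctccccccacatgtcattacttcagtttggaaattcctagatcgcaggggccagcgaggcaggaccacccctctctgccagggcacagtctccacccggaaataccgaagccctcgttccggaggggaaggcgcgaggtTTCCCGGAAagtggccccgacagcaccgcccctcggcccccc
The Selp window held no match to TTCNNNGAA, to TTCNNNNGAA (the wider spacing) or to the NF-kappaB consensus on either strand. The Icam1 match, TTCCCGGAA, spans positions -42 to -34 from the start. Cd44 had a match to TTCNNNNGAA, TTCCTGGGAA at -211 to -202, and Itgam had none of the 3 motifs. Of 32851 promoter windows of this length, 7.02% held TTCNNNGAA, 5.85% TTCNNNNGAA and 3.9% the NF-kappaB consensus. A match describes these letters and no binding was measured here.

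Selp was high in KO cells at both times after IL-6 and in WT cells mainly at 100 min. Values are normalized intensities, the deposited array signals after quantile normalization, in the order of replicates 1, 2 and 3. In KO cells Selp read 21.2, 31.2 and 25.1 unstimulated, 818, 608 and 233 at 100 min, and 311, 440 and 328 at 400 min. In WT cells it read 19.1 and 35.8 unstimulated, 262, 272 and 65.4 at 100 min, and 60.2, 25.5 and 33.8 at 400 min. The KO arrays at 100 min lay above the unstimulated KO arrays, as in 5.69% of all tested probe sets. That is the comparison that singled Selp out. Replicate 3 was the lowest of its group at 100 min in both genotypes. The group means ran from 553 ± 296 in KO cells at 100 min through 360 ± 70.2 in KO cells at 400 min, 200 ± 117 in WT cells at 100 min and 39.8 ± 18.1 in WT cells at 400 min (SD, n = 3 each) to 27.5 ± 11.8 in unstimulated WT cells (SD, n = 2) and 25.8 ± 5.02 in unstimulated KO cells (SD, n = 3). In that order the ranges overlapped between the first and second groups and among the last 3. WT arrays at 100 min lay above those at 400 min, a non-overlap seen in 5.7% of all tested probe sets.

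**Figure D1:**
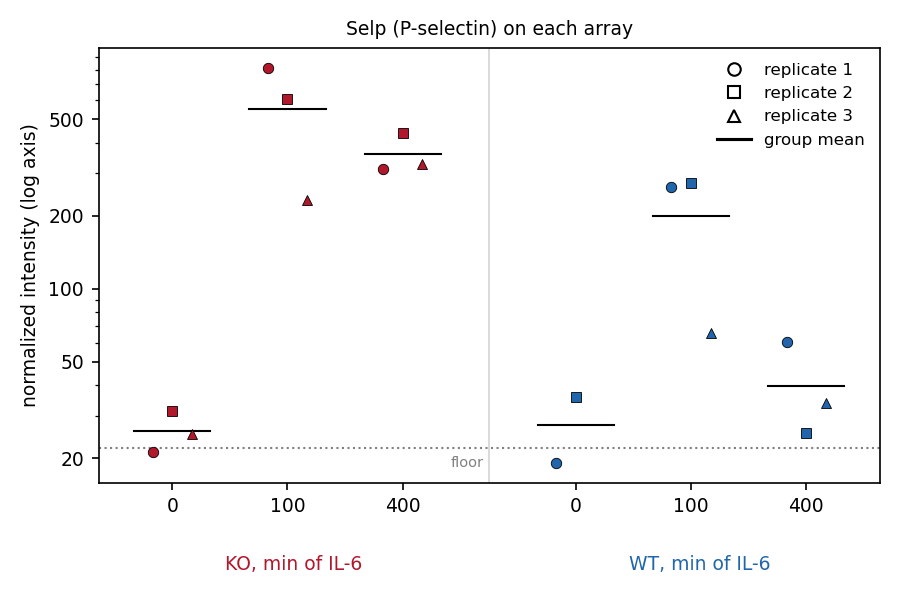
Normalized intensity of Selp on each array (log axis) by genotype and minutes of IL-6, with each replicate's symbol and a bar at the group mean; the dotted line is the floor of 22.01 applied before log2. The 3 KO arrays at 400 min sit between 311 and 440, above the WT arrays at 400 min, which sit between 25.5 and 60.2.

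The genotypes differed in Selp at 400 min. KO cells exceeded WT cells by 3.25 on the log2 scale (SE 0.56, 95% interval 2.05 to 4.45, 9.53-fold, limma adjusted p = 0.029 over all 9871 probe sets tested), and the KO arrays all lay above the WT arrays, which held for 7.21% of all tested probe sets. Selp was the 1 member called among the 10 member probe sets tested, where 0.365% of all tested probe sets were called. The contrast used neither the unstimulated nor the 100 min KO arrays that drew attention to Selp, except in the estimate of spread shared by all groups, although earlier results of these data were known when the gene was chosen. It was lost when only the groups compared entered the fit (adjusted p = 0.0674) and without KO 400 min replicate 1 (0.0862) or 2 (0.117) or WT 400 min replicate 2 (0.124) or 3 (0.0886), while the difference stayed between 2.99 and 3.60 with each of the 17 arrays left out. Selp passed the filter on dim probe sets through 8 arrays, all 6 stimulated KO arrays and 2 WT arrays at 100 min, and no unstimulated or WT 400 min array, so it was tested only through groups in which it was high. Without the filter the difference was 3.25 with adjusted p = 0.0381.

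Selp was singled out in KO cells, with earlier results of these data known. Of the WT arrays, 2 at 100 min were among those that took it past the filter, and all entered the shared spread. In WT cells the gene read higher at 100 min on all 3 arrays than on either unstimulated array. The difference was 2.57 (SE 0.62, interval 1.23 to 3.92) and did not pass the adjustment (adjusted p = 0.388). At 400 min the WT arrays overlapped the unstimulated ones (0.41, SE 0.62, adjusted p = 0.979) and lay below all those at 100 min (-2.17, SE 0.56, adjusted p = 0.484). Such non-overlap was seen in 10.7% of all tested probe sets upward at 100 min against unstimulated and in 5.7% downward at 400 against 100 min. The WT readings at 100 min fell into a pair at 262 and 272 and replicate 3 at 65.4. Within replicates 1 and 2 alone the WT difference at 100 min was 3.22 and was called (adjusted p = 0.0432). Without WT 100 min replicate 3 the fall between the 2 times was -2.84 and was called (adjusted p = 0.0471). Both settings left out the 65.4 reading. They called 22 and 18 probe sets in all, where the fit over all arrays called 1 and 0. With each of the 17 arrays left out in turn, the WT difference at 100 min was called in 0 fits. With the floor at the 20th percentile it was 1.87 (limma adjusted p = 0.585).

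The contrasts that use the KO unstimulated or 100 min arrays are given as a description, since they drew attention to the gene. Selp in KO cells stood 4.24 above unstimulated at 100 min (SE 0.56) and 3.78 at 400 min (SE 0.56) on the log2 scale. These comparisons called 0.577% and 1.82% of all probe sets. Unstimulated KO and WT cells differed by -0.12 (SE 0.62), and at 100 min KO cells read 1.54 above WT cells (SE 0.56) with overlapping ranges. The KO response exceeded the WT response by 1.66 at 100 min (SE 0.84) and by 3.37 at 400 min (SE 0.84). One unstimulated array of each genotype was at the floor, so differences from unstimulated understate the fold.

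Across the whole array 4 of the 5 replicate 3 arrays stood apart. On the first principal component the replicate 3 arrays lay at 58.08 (WT 100 min), 45.21 (KO unstimulated), 30.49 (KO 100 min), 26.61 (WT 400 min) and 0.89 (KO 400 min), against at most 2.27 for the other 12, and unstimulated WT cells had no replicate 3. Within replicate 3, Selp read 328 in KO cells and 33.8 in WT cells at 400 min, a log2 difference of 3.28, and 233 and 65.4 at 100 min, a difference of 1.83. Socs3 itself read 16.5 to 179 on 8 KO arrays with 1 probe set and 24.6 to 333 with the other, but 903 and 793 on the library labelled KO 400 min replicate 3, within the range of stimulated WT arrays (432 to 2552 and 483 to 1326). Selp on that library, 328, lay between the other 2 KO arrays at 400 min, and without it the genotype difference was 3.31 (adjusted p = 0.0419). The genotypes also differed in the Y-linked Eif2s3y (7.67 to 112 in KO, 245 to 790 in WT) and in Xist (228 to 993 in KO, 11.1 to 188 in WT), so sex of the cells and genotype cannot be told apart. On the library labelled KO 400 min replicate 3, Eif2s3y read 81.9 and Xist 408, within the KO ranges.

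P-selectin is otherwise a gene of platelets and endothelium, so markers of both were read beside it. In bulk RNA, more cells of a type and more RNA per cell cannot be told apart. Of 12 megakaryocyte and platelet markers 5 were on the array, and their summed intensity was 668 to 991, 685 to 1292 and 552 to 1275 in KO cells at 0, 100 and 400 min, and 840 to 875, 441 to 913 and 592 to 800 in WT cells. Pf4, platelet factor 4, read 13.9 to 146 over all arrays and was 65.8 on average in KO cells and 124 in WT cells at 400 min. Gp1bb, a chain of the platelet receptor for von Willebrand factor, read 13 to 63. The others averaged higher in KO than in WT cells at 400 min. Gp5 averaged 156 and 146, Gp9 169 and 139, and Vwf, which is on the endothelial list too, 368 and 264. Of 13 endothelial markers 10 were on the array, with sums of 1615 to 2836, 2260 to 3421 and 2899 to 3945 in KO cells and 3009 to 3721, 1883 to 3572 and 2593 to 3230 in WT cells at the same times. Eng, the TGF-beta co-receptor endoglin, which macrophages also express, averaged 1522, 1731 and 2217 in KO cells and 2538, 2107 and 2098 in WT cells at 0, 100 and 400 min. Kdr, a VEGF receptor, averaged 162, 217 and 267 in KO cells and 79.8, 165 and 103 in WT cells, and the sialomucin gene Emcn averaged 127 in KO cells and 78.7 in WT cells at 400 min. Cdh5, VE-cadherin, never passed the floor, at 5.75 to 21.6, and the angiopoietin receptor Tek read 2.82 to 101. Sele, the endothelial E-selectin, averaged 104 in KO cells and 68.6 in WT cells at 400 min, with no difference called. In KO against WT cells at 400 min, where Selp differed, 5 of the 6 endothelial markers tested lay above 0, with a median log2 difference of 0.52 beside -0.02 for all tested probe sets, and the 4 platelet markers tested had a median of 0.02. In KO against WT cells at 100 min all 4 tested platelet markers lay above 0, with a median of 0.38. The 6 endothelial markers had a median of 0.01 there, beside -0.01 for all tested probe sets. No marker of either list was called in any comparison. The part of such cells in the Selp reading was not tested beyond these values. The 13 macrophage markers on the array summed to between 148199 and 188426 in every sample. Bright genes such as Lyz2 (22014 to 32381) weigh most in that sum, which can hide moves of dimmer ones. Mrc1 averaged 503, 1252 and 4993 in KO cells and 1208, 1306 and 1732 in WT cells at 0, 100 and 400 min. Msr1 averaged 1538 in unstimulated KO cells and 320 in unstimulated WT cells. Among the 13, the Fc receptor gene Fcgr1 rose in KO cells at 400 min over unstimulated KO cells (1.96, SE 0.37, limma adjusted p = 0.0168).

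Selplg, which encodes the ligand that Selp binds, read 4041, 4134 and 4616 in unstimulated KO cells, 3391, 3062 and 4654 at 100 min, and 3014, 2511 and 4636 at 400 min. In WT cells it read 3894 and 3949 unstimulated, 3265, 3248 and 3259 at 100 min, and 3123, 3010 and 3749 at 400 min. All stimulated WT arrays lay below the unstimulated pair, as did 11.3% of all tested probe sets at 100 min and 11.2% at 400 min. In KO cells replicates 1 and 2 lay below all unstimulated KO arrays at both times, while replicate 3 stayed at 4636 or above, beyond every unstimulated array. No difference was called: stimulated minus unstimulated was -0.38 in KO cells at 400 min (interval -0.90 to 0.14, adjusted p = 0.619) and -0.27 in WT cells at 100 min (interval -0.85 to 0.32, adjusted p = 0.942). At 400 min, where Selp differed between genotypes, Selplg differed by -0.00 (interval -0.52 to 0.52).

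Icam1, the endothelial and leukocyte ligand of LFA-1 and Mac-1, read higher on average after IL-6 in both genotypes, by amounts that did not pass the adjustment. It read 751, 570 and 759 in unstimulated KO cells, 1257, 1196 and 1204 at 100 min, and 1442, 1355 and 614 at 400 min. In WT cells it read 938 and 520 unstimulated, 1149, 971 and 1068 at 100 min, and 1041, 1102 and 909 at 400 min. At 100 min every KO array lay above every unstimulated KO array, by 0.83 (SE 0.31, interval 0.15 to 1.50, unadjusted p = 0.0199, adjusted p = 0.587), and every WT array above both unstimulated WT arrays, by 0.60 (SE 0.35, adjusted p = 0.886). Such non-overlap upward was seen in 5.69% of all tested probe sets in the KO comparison and in 10.7% in the WT one. The low KO reading at 400 min, 614, was on the library whose Socs3 was high, and the KO difference at 400 min was 0.63 with it (adjusted p = 0.464) and 1.03 without it (adjusted p = 0.0743). The genotypes did not differ by a called amount at any time, with KO minus WT at -0.02, 0.20 and 0.07 for 0, 100 and 400 min.

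Vcam1, an endothelial receptor that some macrophages carry, was dim on all 3 of its probe sets, and they disagreed. Probe set 92558_at ranged from 7.23 to 195, lay at the floor on 9 of 17 arrays and was not tested. Probe set 92559_at ranged from 8.97 to 147 and exceeded the filter's intensity of 129 on 2 arrays. Its mean was 107, 58.4 and 76.6 in KO cells and 125, 81.5 and 71.1 in WT cells at 0, 100 and 400 min. Probe set 92560_g_at averaged 105, 130 and 114 in KO cells and 137, 176 and 217 in WT cells, the opposite direction in WT cells. At 400 min its 3 KO arrays lay below the 3 WT arrays, by -1.38 (SE 0.84, adjusted p = 0.703), while 92559_at gave 0.06 (SE 0.65). Non-overlap downward was seen in 7.57% of all tested probe sets in that comparison.

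Among the integrin chains Itgb2, the beta2 chain common to LFA-1 and Mac-1, varied least over the arrays, with an SD of 0.25 on the log2 scale beside 0.60 for Itgam and 0.58 for Itgal. Itgb2 read 5645, 4911 and 5860 in unstimulated KO cells, 4577, 4854 and 5171 at 100 min, and 4738, 4342 and 4199 at 400 min. WT cells read 4122 and 3578 unstimulated, 3674, 3049 and 4816 at 100 min, and 3894, 3442 and 4199 at 400 min. The unstimulated KO arrays all exceeded the unstimulated WT arrays, by 0.51 (SE 0.23, unadjusted p = 0.0449, adjusted p = 0.834), a non-overlap seen in 11.8% of all tested probe sets. The genotype difference was 0.36 at 100 min and 0.21 at 400 min, and IL-6 moved the WT mean by -0.02 and -0.00. The intervals of these WT differences, -0.52 to 0.47 and -0.50 to 0.49, bound the change to 0.52 log2 units either way. In KO cells the differences from unstimulated were -0.17 at 100 min (SE 0.21) and -0.30 at 400 min (SE 0.21, limma adjusted p = 0.639). Neither was called.

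Itgam, the alpha chain of Mac-1 and a common myeloid marker, read lowest at 100 min in both genotypes. It read 1382, 1173 and 1776 in unstimulated KO cells, 1088, 663 and 753 at 100 min, and 1316, 815 and 1237 at 400 min. In WT cells it read 1168 and 745 unstimulated, 747, 367 and 913 at 100 min, and 2221, 1324 and 1035 at 400 min. WT arrays at 400 min all lay above those at 100 min, by 1.20 (SE 0.39, interval 0.37 to 2.03, unadjusted p = 0.0079, adjusted p = 0.651), as in 5.94% of all tested probe sets. KO arrays at 100 min all lay below the unstimulated ones, by -0.80 (SE 0.39, adjusted p = 0.821), as in 5.68% of all tested probe sets. None of its 11 comparisons was called, the difference between KO and WT responses at 400 min included (-1.01, SE 0.58, adjusted p = 0.908).

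Itgal, the alpha chain of LFA-1, showed no separation of groups in any comparison. Its group means lay between 262 and 385, with single arrays from 114 to 569. In each of the 5 groups with a replicate 3, that array was the highest, at 378 to 569. The difference between KO and WT cells at 100 min was -0.64 (SE 0.50, interval -1.73 to 0.44).

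**Figure D2:**
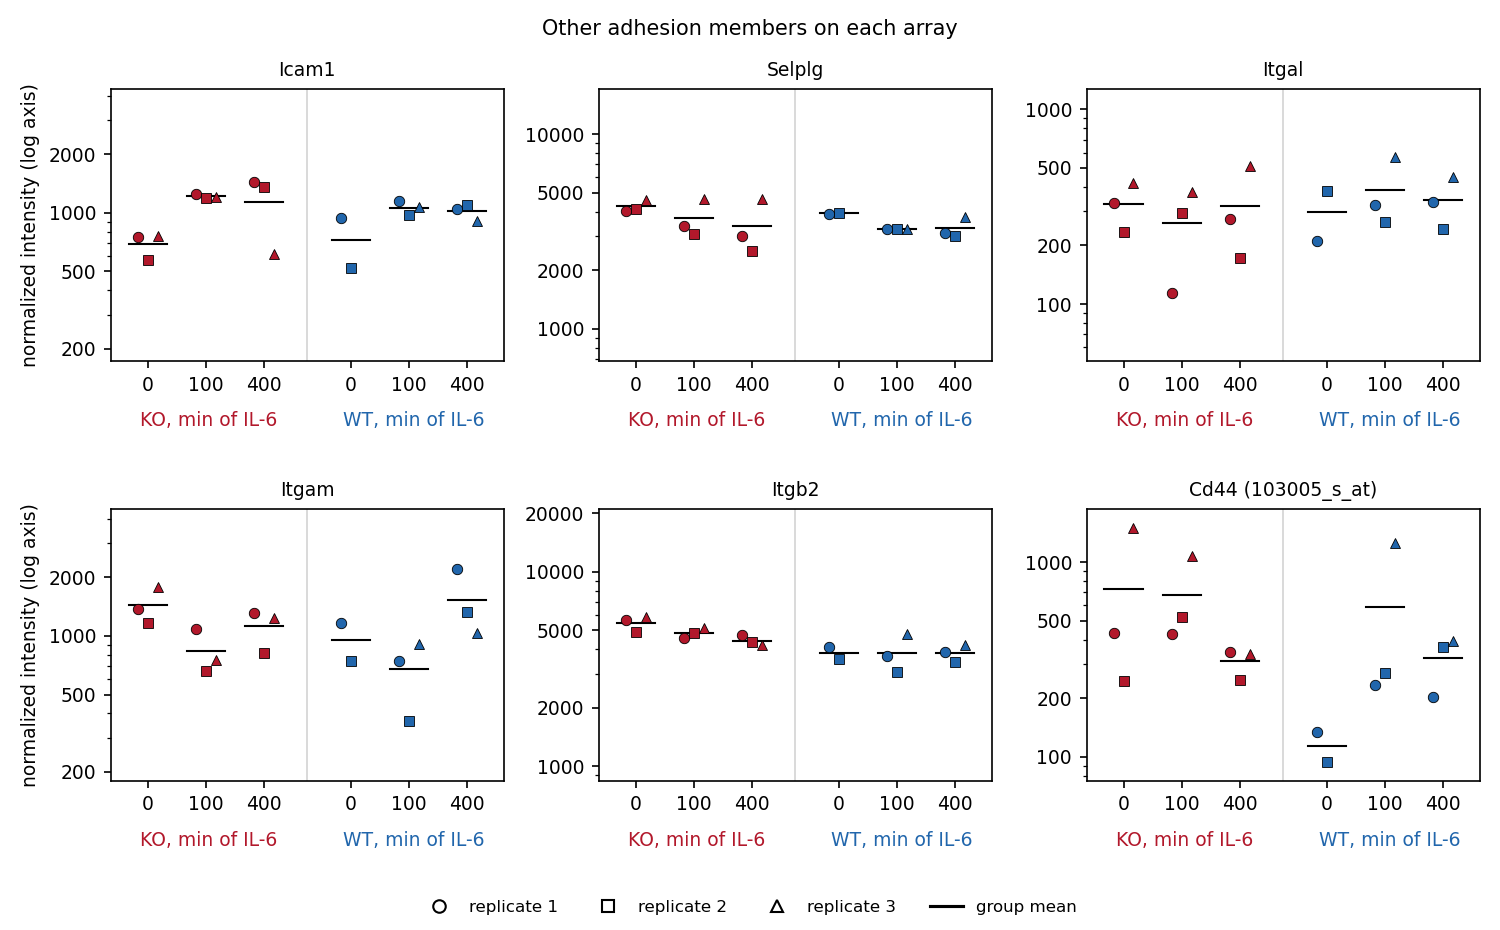
Normalized intensity on each array (log axes, each spanning a 25-fold range) for Icam1, Selplg, Itgal, Itgam, Itgb2 and the brightest Cd44 probe set, by genotype and minutes of IL-6, with each replicate's symbol and a bar at the group mean. Replicate 3 of Cd44 reached 1505 and 1074 in KO cells and 1256 in WT cells, above all arrays of replicates 1 and 2.

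The highest readings of Cd44 were on replicate 3 arrays. Its brightest probe set, 103005_s_at, read 435, 245 and 1505 in unstimulated KO cells, 427, 524 and 1074 at 100 min, and 346, 248 and 337 at 400 min. In WT cells it read 134 and 94.5 unstimulated, 234, 269 and 1256 at 100 min, and 202, 367 and 395 at 400 min. The 3 readings above 1000 were all replicate 3, and replicates 1 and 2 ran from 94.5 to 524. Unstimulated KO cells exceeded unstimulated WT cells by 2.27 (SE 0.76, unadjusted p = 0.0103, adjusted p = 0.756), but WT cells had no replicate 3 at that time, and within replicates 1 and 2 the difference was 1.54. WT cells at 100 min exceeded unstimulated WT cells by 1.93 (SE 0.76, adjusted p = 0.76), and by 1.16 within replicates 1 and 2. Of the other Cd44 probe sets, 103003_i_at (3.73 to 129) was too dim to test and 103004_r_at (23.7 to 284) went the other way in WT cells at 400 min, with -1.64 (SE 0.73, adjusted p = 0.778) against 1.45 (SE 0.76, adjusted p = 0.827) for 103005_s_at. Probe set 103004_r_at exceeded the filter's intensity of 129 on 2 arrays, 1 of KO cells at each stimulated time, and on 0 WT arrays. Its WT difference is thus one of dim signal.

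Over the 7 genes other than Selp, none of 99 differences (9 probe sets in 11 comparisons) was called by limma, with 7 at an unadjusted p under 0.05 (6.79% of all tested values over the 11 comparisons) and the lowest adjusted p at 0.464. In the 400 min genotype comparison the members' median was 0.03 beside -0.02 for all tested probe sets, and 5 of 10 lay above 0. In KO cells against unstimulated KO cells the members' median was -0.08 at 100 min and -0.34 at 400 min, beside -0.04 for all tested probe sets at each time. Selp is not counted as a call in either, since both use arrays on which it was singled out. In WT cells 0.0101% of all tested probe sets were called at either time and none of the members. Between genotypes at 100 min 0.0405% were called, again none of the members.

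**Figure D3:**
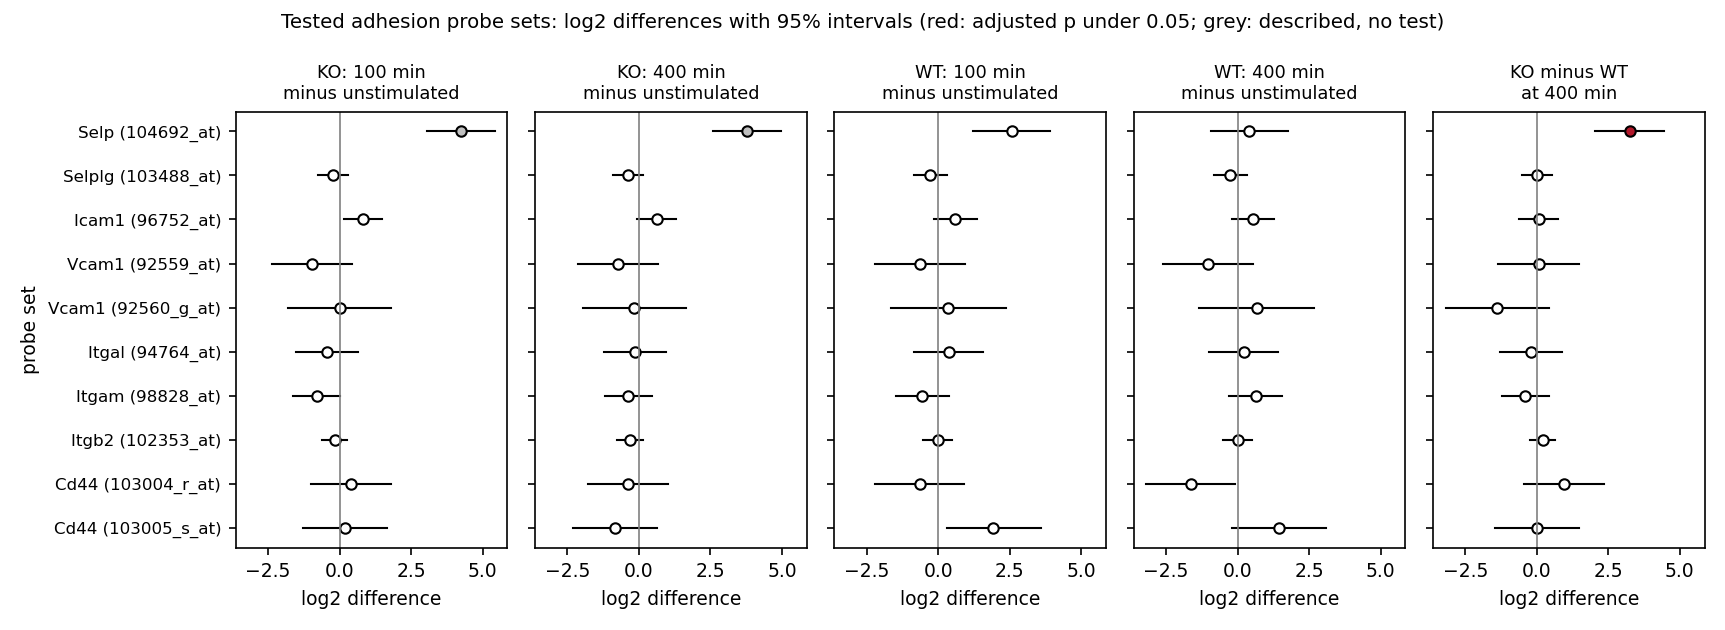
Log2 difference (points) with its 95% interval (lines) for the 10 tested probe sets in 5 comparisons, with IL-6 minus unstimulated in KO and then WT cells and KO minus WT at 400 min. Selp in KO minus WT (3.25) is the 1 filled in red for an adjusted p under 0.05; its KO differences of 4.24 and 3.78 are grey because they are given without a test.

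A wider list of 55 genes of the adhesion cascade (other selectins and integrins, junction molecules, selectin ligand enzymes, cytoskeletal adaptors) had 45 genes on the array and 42 tested. Only the KO comparison of 400 min with unstimulated cells gave calls, 1 in each direction (2 of 42 genes, where 1.82% of all tested probe sets were called), and limma called none in the other 10 comparisons. Tpst2 encodes a tyrosylprotein sulfotransferase, the enzyme type that sulfates PSGL-1 for P-selectin binding. Tpst2 read 230, 172 and 224 in KO cells at 400 min and 36.2, 108 and 29.7 in unstimulated KO cells (2.08, SE 0.44, adjusted p = 0.0304). Unstimulated WT cells, at 148 and 233, overlapped the stimulated KO cells, and the call was lost without any of 5 of the 6 arrays compared, with adjusted p up to 0.128, as well as with only the groups compared (adjusted p = 0.184) and within replicates 1 and 2 (1.65, adjusted p = 0.205). Its relative Tpst1 differed by 1.32 in KO cells at 100 min (SE 0.30, limma adjusted p = 0.0868) and was not called. Tpst1 averaged higher at 100 min than unstimulated in both genotypes, 1046 and 417 in KO cells and 822 and 397 in WT cells. Cd34, a sialomucin of progenitors and endothelium that can carry selectin ligands, read 38.5, 63.3 and 28 in KO cells at 400 min and 157, 228 and 300 in unstimulated KO cells (-2.43, SE 0.57, adjusted p = 0.0473). That call was lost without 13 of the 17 arrays taken singly (adjusted p up to 0.167) and in 4 of the 8 other alternatives (up to 0.282), and a second Cd34 probe set gave -1.47 (SE 0.95, adjusted p = 0.624). The list's median in this comparison was -0.16 beside -0.04 for all tested probe sets.

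The 4 genes whose log2 values followed Selp most closely over the 17 arrays were Gbp7 (Pearson r = 0.969), Gbp3 (0.969), Ccl12 (0.949) and Ch25h (0.936). Gbp7 and Gbp3 encode interferon-inducible guanylate-binding proteins, Ccl12 a monocyte chemoattractant and Ch25h cholesterol 25-hydroxylase. These points share arrays and the same 6 groups, and the values are a description. In KO cells Gbp7 stood 3.27 and 2.95 above unstimulated at 100 and 400 min, and in WT cells 2.34 and 0.13. Gbp3 stood 3.21 and 3.69 above in KO cells, and 2.19 and 0.02 in WT cells. Ccl12 stood 4.76 and 5.17 above in KO cells and 1.27 above in WT cells at 400 min, the highest WT value of the 5 genes at that time. Among the members themselves the closest pair of genes by size was Selplg with Icam1, at r = -0.67 over the same arrays, and Selp with Icam1 had 0.55.

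**Figure D4:**
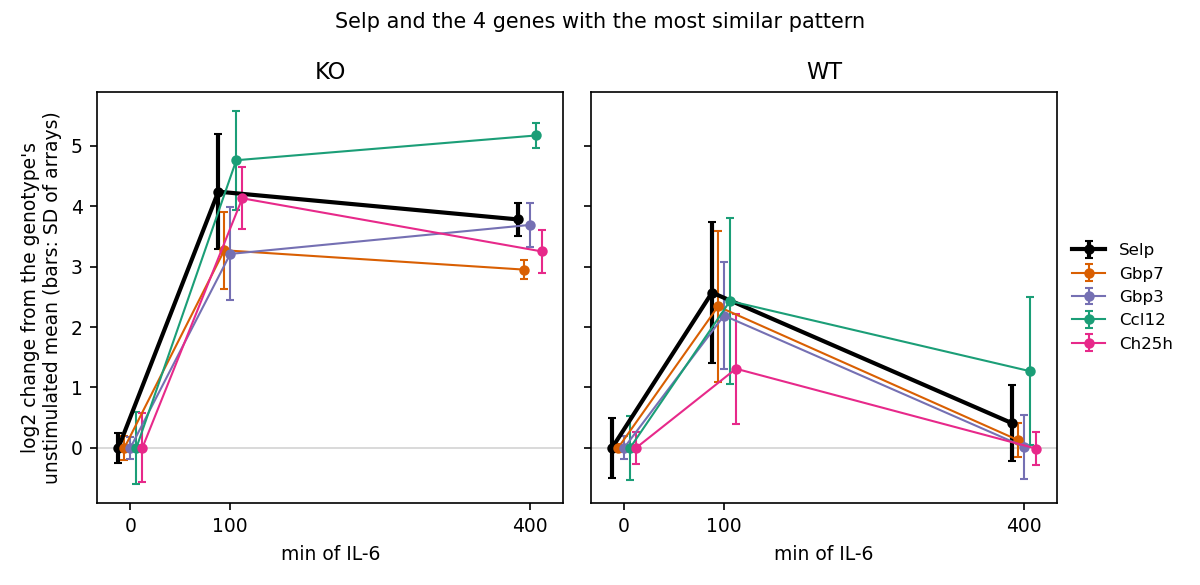
Mean log2 change from the same genotype's unstimulated mean (y axis, bars are the SD between arrays) against minutes of IL-6 for Selp, Gbp7, Gbp3, Ccl12 and Ch25h, points shifted slightly sideways for legibility. In KO cells the 5 genes stand 2.95 to 5.17 above unstimulated at 400 min, and in WT cells -0.01 to 1.27.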

How the data were processed

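The authors deposited 1 table of linear probe set intensities for 17 arrays. Software and summary method were not given in the sources used here. Deposited intensity had been scaled per array: with 2% of probe sets trimmed from either end, the array means were 499.5 to 499.9. Intensities were quantile normalized, raised to a floor at the 10th percentile (22.01) and converted to log2, a scale computed here and not by the authors. After leaving out 66 control probe sets, 9871 of 12488 were tested, those that on 2 or more arrays exceeded that array's 40th percentile (129), with 1 mean per group over all arrays (limma 3.58.1, R 4.3.3; lmFit and eBayes) and Benjamini-Hochberg adjustment over all of them; an adjusted p under 0.05 is a call. The procedure was tested on simulated data with independent noise on each array. Those data lacked the replicate 3 structure described above, so they do not test the calls under it. Genes were named from the platform annotation, with 0 symbols updated.

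The members and lists were chosen with earlier results of these data known. Every probe set of a member is named. Of the cascade list, up to 4 called genes per comparison are named, with the uncalled Tpst1 beside Tpst2. The 4 genes most correlated with a called member are named too. Promoters were RefSeq's. The number of arrays limits precision. Alternatives covered the scaling, floor, offset, filter, arrays fitted, replicate 3 and each array left out.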

Additional observations from a re-analysis of the deposited data

How the results depend on the processing

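Across 25 alternatives, 2609 of 2695 member values kept their side of the threshold and, where uncalled, stayed within the replicate spread. A further 78 moved by more, 2 gained a call and 6 lost one. The sign differed from the main result in 110 values, and none reversed while called. With only the groups compared in the fit, the members called numbered 0 in the KO against WT comparison at 400 min, against 1 over all arrays; the count was also 0 in the KO comparison of 100 min with unstimulated cells, which had led to the choice of Selp and from which nothing is read; within replicates 1 and 2 the WT comparison of 100 min with unstimulated cells gave 1, against 0. With each array left out in turn, the count ran from 0 to 1 for WT at 400 against 100 min and from 0 to 1 for KO against WT at 400 min. The fit with a replicate block gave 3.25 for Selp in KO against WT cells at 400 min (adjusted p = 0.0131) and changed no member's call. The labels do not say what a shared number marks. Deviations from group means correlated at -0.016 to 0.236 for same-numbered samples (median 0.057, 11 of 40 pairs over 0.1) and had a median of -0.041 for different numbers (2 of 80 over 0.1). By these values same-numbered samples were somewhat more alike. The rule used here, that every same-numbered pair be over 0.1, was not met, so the samples were not taken as pairs. That rule cannot exclude a batch shared by a number.

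Over all probe sets the counts of calls moved more. KO at 100 min against unstimulated called 57, and 0 with only the groups compared, 86 with the replicate block, 94 with replicate 3 as a batch, 125 within replicates 1 and 2 and 24 to 79 with an array left out. KO at 400 min against unstimulated called 180, and under the same settings 52, 305, 332, 309 and 73 to 231. KO against WT at 400 min called 36, and 2, 57, 85, 134 and 11 to 57. KO against WT at 100 min called 4, and 0, 10, 16, 40 and 1 to 12, with 2 on the deposited scaling and 10 with the floor at the 20th percentile. WT at 100 min and at 400 min against unstimulated each called 1, and up to 22 and 16 within replicates 1 and 2. The comparisons of 400 with 100 min in WT and in KO cells and the response difference at 400 min called 0, and 17, 18 and 17 within replicates 1 and 2; unstimulated KO against WT called 0, and 9 there and up to 17 with an array left out. The causes were not tested. Signal near the floor limits Selp in unstimulated cells, Vcam1 and 2 Cd44 probe sets.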
